A study of Mus musculus with 18 samples.

Results

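The genes of mitochondrial protein import and of the cristae, the folds of the inner mitochondrial membrane, were followed in RNA from leukemic spleens of mice with T-cell acute lymphoblastic leukemia (T-ALL). They were taken as every gene whose symbol begins with Tomm or Timm and a digit, or with Samm, Grpel, Dnajc19, Pam16, Chchd, Immt or Micos, without pseudogenes. This gave 37 of the 18329 genes measured in the acute libraries and 39 of the 18953 genes measured in the survival libraries, 39 different genes in all and 37 in both. A mean of at least 10 normalized counts, the minimum for a test, was reached by 35 of the 37 acute members and by 36 of the 39 survival members. Timm10 and Tomm20l stayed under it in the acute libraries, and Chchd10, Timm8a2 and Tomm20l in the survival libraries. No symbol began with Micos, since the cristae genes Minos1 and 2410015M20Rik, which RefSeq calls Micos10 and Micos13, carry their older names here. They are counted with the other genes of the pathway. Of the members too low to test, Timm10 averaged 2.03 ± 2.07 normalized counts in KO acute and 8.03 ± 2.81 in WT acute (SD, n = 4 each), Tomm20l averaged 1.54 in KO acute and 3.17 in WT acute, and Timm8a2 was listed at 0 in all KO survival libraries and in WT survival replicate 1.

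All mice were C57BL/6 recipients, irradiated at a sub-lethal dose, that received T-ALL cells with a conditional allele of Acly by vein. ACLY, ATP citrate lyase, makes acetyl-CoA in the cytosol from citrate that leaves the mitochondria. KO acute (n = 4) were spleens of overtly leukemic mice 48 h after tamoxifen, 3 mg per mouse in corn oil by intraperitoneal injection, and WT acute (n = 4) were the same after corn oil alone. KO survival first wave (n = 3) and KO survival second wave (n = 3) came from mice given the same tamoxifen dose 48 h after the transplant and taken at the humane endpoint, and WT survival (n = 4) from mice given corn oil at that time and taken at the endpoint. The KO and WT groups thus differ in tamoxifen as well as in Acly, and their effects cannot be told apart. What distinguishes the waves is not stated in the labels, nor are the recombinase, the exons removed, and whether the libraries within a group stem from different mice or different primary leukemias. The p-values therefore speak only of the variation among these libraries, which may be technical.

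Nearly all mitochondrial proteins are made in the cytosol from nuclear genes and enter through the TOM complex of the outer membrane, whose receptors TOMM20, TOMM22 and TOMM70 bind precursors and pass them to the channel TOMM40. From there SAM inserts barrel proteins into the outer membrane, small TIM chaperones escort hydrophobic proteins across the intermembrane space, TIM22 inserts carriers into the inner membrane, and TIM23 with the PAM motor moves precursors into the matrix. The MICOS complex holds the necks of the cristae in shape, and many, though not all, proteins with a CHCH domain are kept in the intermembrane space by disulfide bonds that CHCHD4 makes.

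In the acute comparison the genes of all 3 precursor receptors, Tomm20, Tomm22 and Tomm70a, each fell, although the call for Tomm20 depended on single libraries, and their promoters are printed because of that. The windows run from 250 bases before to 50 bases after the RefSeq start site, 5′ to 3′ on the gene's strand, on GRCm38.p6. Tomm20 is read from chr8:126945872-126946171 on the minus strand, Tomm22 from chr15:79670618-79670917 on the plus strand, and Tomm70a from chr16:57121464-57121763 on the plus strand. Capitals mark matches on either strand to GCGCANGCG, a core of the NRF1 site, in Tomm20, and to CCGGAAG, a core of the ETS site that GABP binds, in Tomm22 and Tomm70a. NRF1 and GABP are known as activators of many nuclear genes of the mitochondria.
Tomm20: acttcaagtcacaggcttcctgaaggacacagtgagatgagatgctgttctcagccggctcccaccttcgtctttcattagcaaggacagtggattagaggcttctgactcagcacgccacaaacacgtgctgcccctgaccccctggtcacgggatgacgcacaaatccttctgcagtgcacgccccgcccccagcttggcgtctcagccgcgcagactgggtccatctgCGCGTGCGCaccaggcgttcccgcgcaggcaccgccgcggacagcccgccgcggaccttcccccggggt
Tomm22: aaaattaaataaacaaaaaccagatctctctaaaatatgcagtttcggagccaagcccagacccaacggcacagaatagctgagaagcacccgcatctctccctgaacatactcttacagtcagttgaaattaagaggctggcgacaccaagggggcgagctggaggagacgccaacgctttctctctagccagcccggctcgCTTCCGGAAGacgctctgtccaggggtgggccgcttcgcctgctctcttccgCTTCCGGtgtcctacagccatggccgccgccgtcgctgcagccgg
Tomm70a: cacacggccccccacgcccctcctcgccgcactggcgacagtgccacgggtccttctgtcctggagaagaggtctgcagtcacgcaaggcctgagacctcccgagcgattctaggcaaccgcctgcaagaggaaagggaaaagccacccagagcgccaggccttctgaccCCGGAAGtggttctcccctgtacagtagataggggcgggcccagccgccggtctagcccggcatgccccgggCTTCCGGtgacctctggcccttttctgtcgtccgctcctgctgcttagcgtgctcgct
Tomm22 holds 3 matches to the ETS motif, of which a pair overlaps in a palindrome, Tomm70a holds 2, and Tomm20 holds 1 match to the NRF1 motif and 0 to the ETS motif. A promoter was matched for 29 of the 35 members tested in the acute comparison. CCGGAAG was in 11 of the 29 (37.9%), against 19.1% of the 10326 tested genes with a promoter and 8.86% of all 32851 promoters. GCGCANGCG was in 6 of the 29 (20.7%), against 14.3% of tested genes and 6.25% of all promoters. The YY1 motif AAGATGGC was in 1 member (5.11% of tested genes, 2.75% of all promoters) and the ERR motif CAAGGTCA in 2 (1.24% of tested genes, 1.56% of all promoters). A member or tested gene was counted when any of its promoters held the motif, while the share of all promoters counts single promoters. The shares per gene and per promoter are therefore not in the same unit. These 4 motifs were chosen after the promoters had been read, both strands were searched, and a match is a run of letters and not a measured binding site.

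Acly itself had lower values in every KO library than in any WT library of its time. In the acute libraries Acly had 793, 804, 717 and 619.6 normalized counts in KO, against 1422, 1129, 1231 and 1241 in WT (log2 fold change -0.78, adjusted p = 0.00266, exact two-sided permutation p = 0.0286). In KO first wave it had 725, 656 and 799.6, in KO second wave 505, 569 and 655, and in WT survival 1722, 1727, 1854 and 1486 normalized counts. The log2 fold change was -1.22 in the first wave (adjusted p = 0.0562) and -1.56 in the second (adjusted p = 0.00155), and for both the exact two-sided permutation test gave p = 0.0571, the smallest it can give with 3 against 4. Normalized totals ran from 7.07 to 10.39 M per library, and the steps between low values place the depth at about 6.09 to 12.7 M reads.

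The libraries differ in ways that move with the groups. Normalized totals were 7.07 to 7.26 M in KO acute and 7.64 to 8.03 M in WT acute, without overlap. All 18 T-ALL and thymocyte markers were measured in both tables, and they summed to 0.924% to 1.31% of the normalized total in KO acute and to 1.26% to 1.46% in WT acute. Among 17 of them tested, 5 fell and 1 rose in the acute comparison (median log2 fold change -0.21), while all 14 tested neutrophil markers were positive (median 0.78, 2 passed the threshold), all 11 tested B cell markers were positive (median 0.71, 0 passed) and all 14 tested erythroid markers were negative (median -0.84, 2 passed). Neutrophil markers summed to 0.0232% to 0.0712% in KO acute and to 0.012% to 0.0239% in WT acute. B cell markers summed to 0.0085% to 0.0235% in KO acute and to 0.00611% to 0.0132% in WT acute, and erythroid markers to 0.0862% to 0.245% in KO acute and to 0.154% to 0.257% in WT acute. Markers of stroma and endothelium summed to 0.0188% to 0.0205% in KO acute and to 0.0125% to 0.0146% in WT acute, and those of dendritic cells to 0.00281% to 0.00327% in KO acute and to 0.00202% to 0.00269% in WT acute. The mitochondrially encoded mRNAs took 4.80% and 5.27% of KO acute replicates 1 and 2, 2.35% and 2.70% of replicates 3 and 4, and 3.50% to 3.69% of the WT acute libraries. Among WT survival libraries, replicates 1 and 2 correlated with each other at 0.941 across genes and with replicates 3 and 4 at 0.902 to 0.919. In bulk RNA, fewer cells of a type and less RNA per cell cannot be told apart, and the part of these differences in the results below was not tested, except where a value without the libraries is given.

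At 48 h after tamoxifen, 5 of the 35 tested import and cristae genes fell and 0 rose. These were Chchd2, Tomm70a, Tomm22, Timm21 and Tomm20. Of all 14184 genes tested 8.07% fell and 4.58% rose (12.6% in either direction), beside 14.3% and 0% of the members. In numbers these backgrounds are 1144 lower and 650 higher, and they moved with the scaling: 832 fell and 746 rose after quantile normalization, and 652 fell and 607 rose after a trend with transcript length, GC content and abundance was taken out. The members' median log2 fold change was -0.12, against 0.03 over all genes tested. Of the members 24 were negative (68.6%) and 11 positive, against 47.6% negative over all genes tested. An unadjusted p under 0.05 was found for 7 of 35 members, a smaller share than the 3984 of all 14184 genes. All KO libraries lay below all WT libraries for 7 of 35 members (20%), and above them for 0. Over all 14184 genes tested the groups did not overlap for 19.0%, with KO below WT for 1554 and above for 1141. With both directions pooled the members stood near the background, while by direction all 7 lay below.

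**Figure D1:**
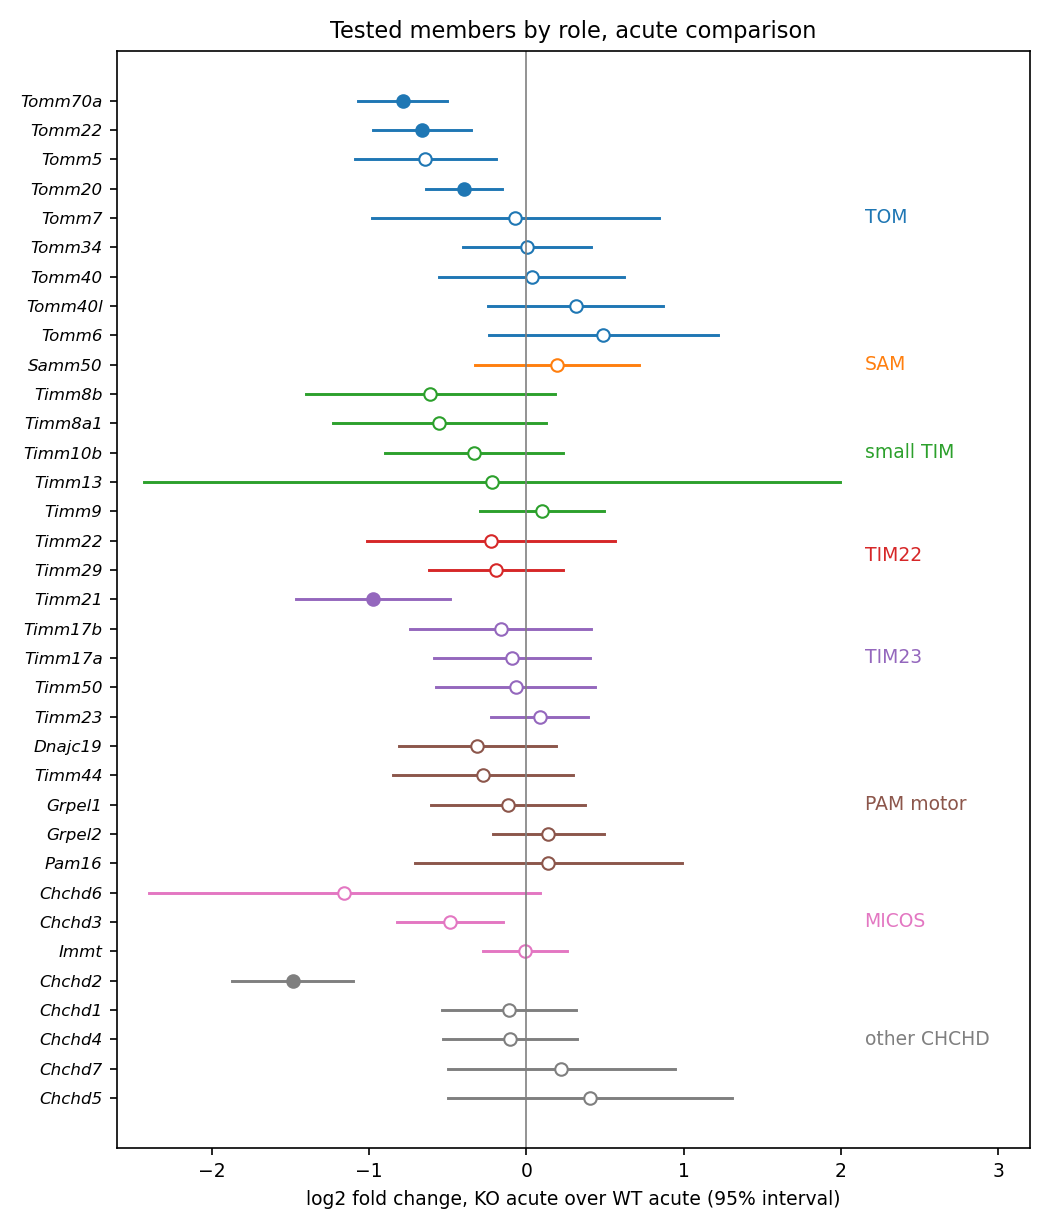
The log2 fold change of KO acute over WT acute (x axis) of the 35 tested members, ordered by role down the page, with 95% intervals of the limma fit; filled points passed the threshold. The 5 filled points are negative, from -0.40 for Tomm20 to -1.48 for Chchd2, and 3 of them are TOM genes.

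The largest change among the members was that of Chchd2, which encodes a twin-CHCH protein of the intermembrane space that is linked to respiratory chain function and, in humans, to inherited Parkinson's disease. Chchd2 (ENSMUSG00000070493, chr5:129881156-129887470, minus strand, GRCm38) had 320.4, 282, 461 and 503 normalized counts in KO acute libraries, against 1065, 997, 1107 and 1098 in WT acute libraries. KO averaged 36.7% of WT, with a log2 fold change of -1.48 (SE 0.18, adjusted p = 0.000947). The groups lay far apart, and the KO replicates with the higher mitochondrially encoded share, 1 and 2, were the lowest. Without those replicates the fall was -1.14 (adjusted p = 0.00127). A pseudogene, Chchd2-ps, from which reads could be split, averaged 5.90 in KO and 0.642 in WT, small beside the Chchd2 values. Per kb of transcript Chchd2 had the highest mean level of any member in WT acute, at 1166 normalized counts per kb, and stood at 428 in KO acute. The other 4 tested genes of the CHCHD group, Chchd1, Chchd4, Chchd5 and Chchd7, did not pass, with log2 fold changes of -0.11, -0.10, 0.40 and 0.22.

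The KO means of the receptors stood at 58.8% of WT for Tomm70a, 63.7% for Tomm22 and 76.0% for Tomm20. Tomm70a, whose product receives carrier precursors together with cytosolic chaperones, had 1789, 1264, 1753 and 1992 normalized counts in KO acute libraries, against 2849.9, 2936, 2765 and 3012 in WT acute libraries. The log2 fold change was -0.79 (SE 0.13, adjusted p = 0.00283). The groups did not overlap, and replicate 2 was the lowest in KO. Without KO replicates 1 and 2 the fall was -0.63 (adjusted p = 0.00666). Exons of Tomm70a overlap those of Nit2 on the opposite strand, and no source used here gives the strand setting of the counting. Of the other members whose values are printed, Timm9, Timm10b, Timm29, Dnajc19, Pam16, Immt and Tomm40 also overlap a gene on the opposite strand. Timm10b, Samm50 and Timm23 overlap one on the same strand, and the pathway gene Stoml2 one on the opposite strand.

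Tomm22, the central receptor that joins the others to the channel, had 406, 484, 515 and 616 normalized counts in KO acute libraries, against 768, 849.7, 766 and 788 in WT acute libraries. The log2 fold change was -0.66 (SE 0.15, adjusted p = 0.0102). The groups did not overlap. The call was lost without KO replicates 1 and 2 (-0.49, adjusted p = 0.0698) and with the length, GC and abundance trend taken out (-0.35, adjusted p = 0.122). Tomm20, the receptor for cleavable presequences, had 999, 964, 842 and 894 normalized counts in KO acute libraries, against 1175, 1227, 1199 and 1265 in WT acute libraries. It was at -0.40 (SE 0.11, adjusted p = 0.0334), again with no overlap. The Tomm20 call did not hold without KO replicate 3 (adjusted p = 0.0824) or 4 (0.0654), without WT replicate 1 (0.0509), 2 (0.0818), 3 (0.0707) or 4 (0.0958), or after quantile normalization (-0.26, adjusted p = 0.158), and it held without KO replicates 1 and 2 (-0.49, adjusted p = 0.0391).

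The channel gene Tomm40 did not pass the threshold. It had 168, 83.4, 121 and 101 normalized counts in KO acute libraries, against 159, 107, 89.4 and 102 in WT acute libraries. The ranges lay over each other, and the interval of the log2 fold change, -0.55 to 0.62 around 0.04, includes a fall of the size seen for Tomm20. Among the small subunits, which stabilise the channel, Tomm5 was lower in every KO library, with 122, 127, 155 and 124 normalized counts in KO against 272, 197, 201 and 166 in WT, and just missed the threshold (-0.64, adjusted p = 0.0594). Tomm6 was at 0.49 (adjusted p = 0.372) and Tomm7 at -0.07 (adjusted p = 0.938). Tomm34, a cytosolic cochaperone of import, was at 0.00 and Tomm40l, a paralog of the channel, at 0.31, and neither passed. In all, 3 of 9 tested TOM genes fell. Summed over the 10 measured TOM genes, the RNA was 497 to 598 counts per M of the normalized total (CPM) in KO acute and 711 to 748 in WT acute, a gap to which Tomm70a, the most abundant member, contributed most. The sum of the 5 other CHCHD genes was 110.0 to 159 CPM in KO acute and 207 to 221 in WT acute, and the other 6 role sums overlapped.

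**Figure D2:**
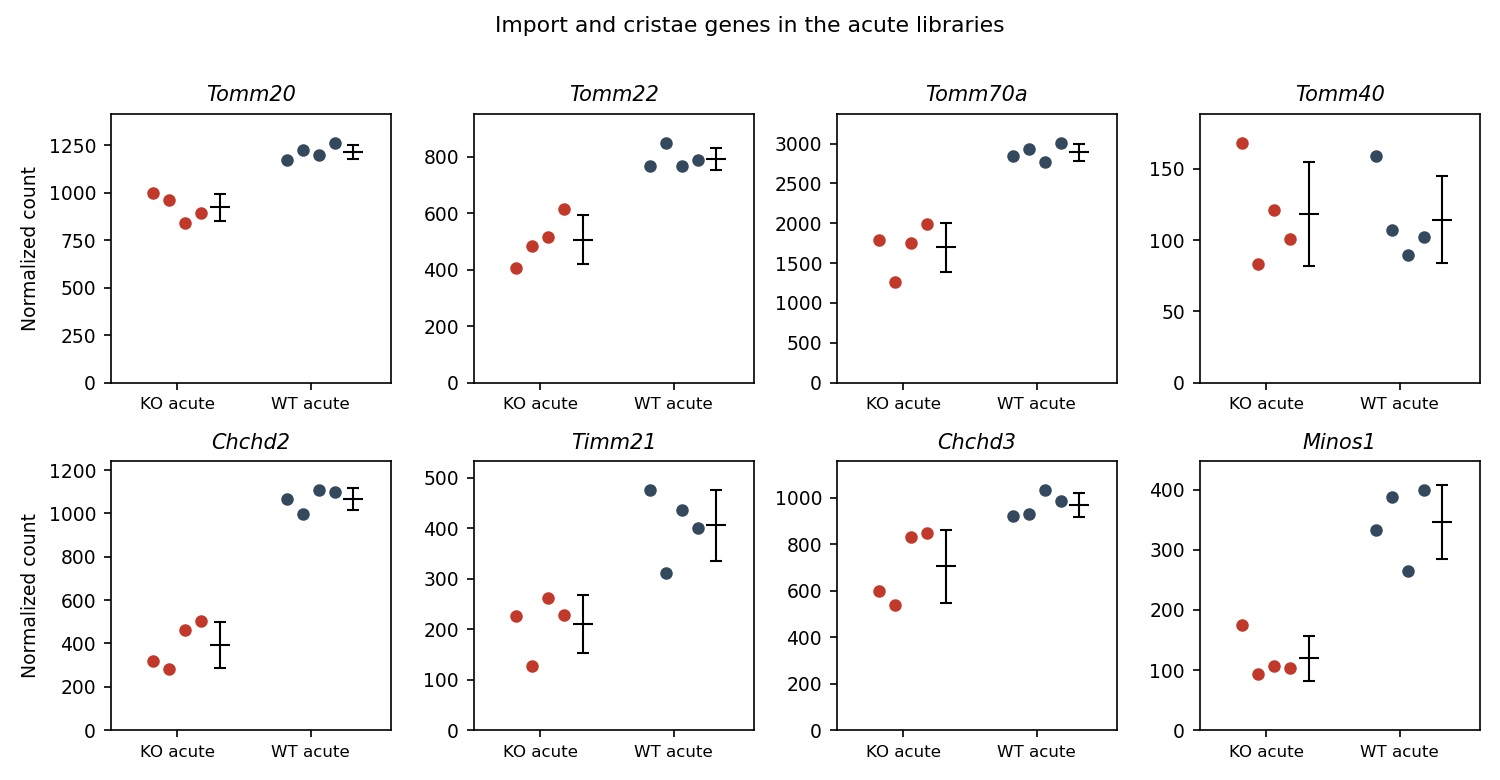
Normalized counts (y axis, from 0) of 8 genes in each KO acute library (left, red) and WT acute library (right, dark blue), with the mean and SD in black (n = 4 each). KO lies below WT without overlap in 7 panels, and Tomm40, with 83.4 to 168 in KO and 89.4 to 159 in WT, overlaps.

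Inside the mitochondrion, 1 further member fell. Timm21, which in yeast links the TIM23 channel to the TOM complex, had 225, 127, 262 and 227 normalized counts in KO acute libraries, against 475, 310.3, 436 and 400.3 in WT acute libraries. KO averaged 51.9% of WT (log2 fold change -0.98, SE 0.23, adjusted p = 0.0141). The groups did not overlap, and both had their lowest value in replicate 2. Without KO replicates 1 and 2 the value was -0.71 (adjusted p = 0.0624). The channel gene of that complex, Timm23, did not pass. It had 433, 408, 522 and 482 normalized counts in KO, against 463, 407, 451 and 412 in WT (0.09, adjusted p = 0.740, interval -0.22 to 0.39). Timm17a, Timm17b and Timm50, also of TIM23, were at -0.09, -0.16 and -0.07 and did not pass.

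The other import machines held no gene past the threshold. In the PAM motor Dnajc19, a J-protein partner of the motor's chaperone, had the highest level, with 340.1, 217, 439 and 309.7 normalized counts in KO and 483, 306, 504 and 321 in WT (-0.31, adjusted p = 0.410), and 0 of 5 motor genes passed. Of the small TIM chaperones 0 of 5 tested passed, with 4 of 5 negative and the lowest at -0.61 (Timm8b, adjusted p = 0.303). Their most abundant member Timm10b had 233, 118, 257 and 240.3 normalized counts in KO and 304, 175, 295 and 272 in WT (-0.33, adjusted p = 0.441). Both groups overlapped, with replicate 2 lowest in each. Samm50, the pore of SAM, had 172, 143, 165 and 211 normalized counts in KO and 208, 166, 144 and 100.1 in WT (0.19, adjusted p = 0.645). Timm29, a TIM22 subunit, had 205, 255, 148 and 202 normalized counts in KO and 212, 210.0, 248 and 243 in WT (-0.19, adjusted p = 0.561), and Timm22, the channel, was at -0.23 (adjusted p = 0.732). None of these pairs of groups was separated.

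None of the 3 cristae genes among the members passed. Immt, which encodes mitofilin, the core of MICOS, had overlapping groups, with 1028, 1162, 1123 and 1387 normalized counts in KO acute libraries, against 1125, 1097, 1285 and 1207 in WT acute libraries (-0.01, adjusted p = 0.968, interval -0.28 to 0.26). Chchd3, the MICOS subunit that binds mitofilin, had 598, 539.7, 833 and 848 normalized counts in KO, against 924, 929, 1033 and 988 in WT. The KO libraries all lay below the WT libraries, yet the gene missed the threshold (-0.48, adjusted p = 0.0599), and without KO replicates 1 and 2 it was at -0.20 (adjusted p = 0.405). Chchd6, a paralog of Chchd3, had 11.9, 6.48, 48.9 and 46.7 normalized counts in KO, against 59.2, 56.7, 37.0 and 41.7 in WT (-1.16, adjusted p = 0.211). Its KO libraries fell into a low pair, replicates 1 and 2, and a pair within the WT range.

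The KO acute libraries were not equally far from WT. KO replicate 2 was the lowest of the 8 libraries for 12 of 35 members (34.3%) and for 20.1% of all genes tested, and the highest for 9 members (25.7%) and for 18.8% of all genes. Summed over all measured members, the RNA was 1330 to 1544 CPM in KO acute and 1679 to 1777 in WT acute. With KO replicates 1 and 2 left out 3 members fell, Chchd2, Tomm70a and Tomm20, of 34 tested, and 232 of all genes rose and 671 fell.

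Per length of transcript, 4 of the 5 genes that fell were among the 8 members with the highest mean level in WT acute. Members with more counts tended to have smaller SEs, and the part of this in the calls was not tested. The SE was 0.11 for Tomm20, 0.13 for Tomm70a and 0.15 for Tomm22, against 0.34 for Tomm6, 0.43 for Tomm7 and 0.58 for Chchd6. Immt and Timm23, with SEs of 0.12 and 0.14, did not pass, and Timm21 passed with 0.23. The same share over all genes was not counted, and length is the median over a gene's annotated transcripts. In WT acute libraries the mean per kb of transcript was 674 normalized counts for Tomm22, 665 for Chchd3, 558 for Timm23, 485 for Tomm70a, 477 for Immt and 454 for Tomm20, and it was 168 for Timm21. Tomm40, at 71.0, and its paralog Tomm40l, at 37.4, were low by comparison, as RNA, with the receptors that serve the same channel. The median transcript of the members was 1456.5 bases long, against 2631.5 bases over all genes tested.

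Among 41 other genes of the pathway, chosen by name, 40 were tested in the acute comparison, of which 6 fell (15%) and 1 rose, beside 8.07% of all genes that fell and 4.58% that rose, or 17.5% beside 12.6% in either direction (median -0.09, beside 0.03 over all genes). These genes were not picked for how they moved here, but the list was written with earlier results known. Minos1, the small MICOS subunit that bends the membrane at cristae necks, had 174, 93.4, 106 and 104 normalized counts in KO acute libraries, against 332, 388, 265 and 399 in WT acute libraries (-1.56, SE 0.23, adjusted p = 0.00146). The groups did not overlap, and the value without KO replicates 1 and 2 was -1.70 (adjusted p = 0.00206). Pmpcb, the catalytic subunit of the peptidase that cuts presequences in the matrix, had 207, 107, 343 and 172 normalized counts in KO, against 649, 517, 486 and 502 in WT (-1.49, SE 0.28, adjusted p = 0.0045). KO averaged 38.5% of WT, without overlap. Its partner subunit Pmpca had 699.8, 673, 660.1 and 687 normalized counts in KO and 796, 709, 578 and 753 in WT, and these overlapped. Pmpca was at -0.05 (adjusted p = 0.843, interval -0.34 to 0.24).

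The matrix chaperonin pair fell together. Hspd1, which encodes HSP60, had 1285, 905, 1364 and 1191 normalized counts in KO acute libraries, against 2297, 1704, 1575 and 1859 in WT acute libraries (-0.65, adjusted p = 0.0141), and its cochaperone Hspe1 had 435, 389, 382 and 497 in KO, against 799, 642, 478 and 633 in WT (-0.57, adjusted p = 0.0431). The groups overlapped for Hspe1 and not for Hspd1. Exons of Hspd1 and Hspe1 overlap on opposite strands, so their reads are uncertain without the strand setting. Stoml2, an inner membrane scaffold, had 57.2, 44.0, 46.2 and 52.0 normalized counts in KO, against 92.7, 104, 83.8 and 95.04 in WT (-0.90, adjusted p = 0.0357). Yme1l1, an inner membrane protease, had 2678, 2526, 3009 and 3452 normalized counts in KO, against 3418, 4301, 3816 and 3779.9 in WT (-0.40, adjusted p = 0.0406). Only KO replicate 4 reached into the WT range of Yme1l1. Dnajc11, a J-protein that associates with MICOS and SAM, was higher in every KO library, with 859.9, 744, 678 and 569 normalized counts in KO and 439, 420.2, 520.5 and 367 in WT (0.70, adjusted p = 0.0133). Without KO replicates 1 and 2 these 5 genes missed the threshold, with Dnajc11 at 0.52 (adjusted p = 0.113), Hspd1 at -0.53 (0.0607), Hspe1 at -0.52 (0.160), Stoml2 at -0.92 (0.0951) and Yme1l1 at -0.24 (0.240).

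At the humane endpoint 0 of 36 tested members passed the threshold in either wave. The background was 0% of 14286 genes in the first wave and 0.224% (32 genes, 7 higher and 25 lower) in the second. These counts rest on single libraries: without WT survival replicate 3 the second wave had 140 calls (76 higher, 64 lower), without second wave replicate 3 it had 61, and it had 15 to 21 without WT survival replicate 1 or 2 or first wave replicate 1 or 2. In the first wave 0 to 3 genes passed with 1 library left out, and the members' count stayed at 0 throughout. An unadjusted p under 0.05 was found for 1 of 36 members in the first wave and 3 of 36 in the second. These are smaller shares than the 1146 and 1857 of all 14286 genes. The members' median log2 fold change was 0.03 in the first wave and 0.02 in the second, against 0.01 and -0.01 over all genes. The groups did not overlap for 3 of 36 members in each wave (8.33%), against 8.0% of all genes in the first and 9.66% in the second. In the first wave Chchd4 and Timm9 lay above and Chchd3 below all WT libraries, and in the second wave Chchd4, Grpel2 and Timm10b lay above. Both waves are compared with the same WT survival libraries. T-ALL and thymocyte markers summed to 1.29% to 1.56% of the normalized total in KO first wave, 1.07% to 1.18% in KO second wave and 0.801% to 1.34% in WT survival, and B cell markers to 0.00571% to 0.00646%, 0.00312% to 0.0045% and 0.00591% to 0.0092% in the same groups. Neutrophil markers summed to 0.003% to 0.00477% in KO first wave, 0.00319% to 0.00405% in KO second wave, 0.018% and 0.0112% in WT survival replicates 1 and 2, and 0.00296% and 0.00403% in replicates 3 and 4. Over both waves all 12 tested neutrophil markers were negative (median -0.82, 0 passed). In WT survival replicates 1 and 2 the T-ALL and thymocyte markers took 0.801% and 0.889%, against 1.34% and 1.32% in replicates 3 and 4. Erythroid markers took 0.149% and 0.0981% against 0.375% and 0.348%, and macrophage markers 0.00559% and 0.00682% against 0.015% and 0.0152%. B cell markers took 0.00845% and 0.0092% in replicates 1 and 2 against 0.00591% and 0.00818% in replicates 3 and 4. This difference was smaller than that of the neutrophil markers, and replicates 1 and 4 lay close together. Replicates 1 and 2 were also the lowest WT libraries for Chchd4, Timm9 and Timm21. The part of these marker differences in those values was not tested. Chchd4 and Timm9 are given without both libraries below.

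None of the 5 genes that fell in the acute comparison passed at the endpoint, and each overlapped with WT survival in both waves. Tomm70a had 3671, 3384 and 3963 normalized counts in KO first wave, 4103, 3624 and 3591 in KO second wave, and 2966, 2828, 3815 and 2738 in WT survival. It was at 0.26 in the first wave (interval -0.07 to 0.59) and 0.30 in the second (interval -0.03 to 0.63). The KO means were above WT, and WT replicate 3 lay within the KO range. Chchd2 had 1485, 1474 and 1649.6 normalized counts in KO first wave, 1547, 1417 and 1311 in KO second wave, and 1176, 1433, 1596 and 1372 in WT survival. Its log2 fold changes were 0.15 (interval -0.19 to 0.48) and 0.04 (interval -0.30 to 0.38), and the groups lay over each other.

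Tomm22 had 1224, 997 and 1182 normalized counts in KO first wave, 1056, 1012 and 961 in KO second wave, and 1334, 1105, 1156 and 928 in WT survival, with log2 fold changes of 0.01 and -0.15. Tomm20 had 1882, 1971 and 1768 normalized counts in KO first wave, 1991, 2013 and 1779 in KO second wave, and 2200.4, 1935, 1874 and 1234 in WT survival, with 0.08 and 0.12. The WT spread of Tomm20 came from replicate 4, the lowest library. Timm21 had 385, 429.7 and 522 normalized counts in KO first wave, 391, 302 and 449 in KO second wave, and 279, 261, 546 and 422 in WT survival, with 0.30 and 0.06. The WT survival replicates 1 and 2, which stood apart in all genes, were its lowest libraries. The acute and survival values were normalized separately, so these differences between the times were not tested.

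**Figure D3:**
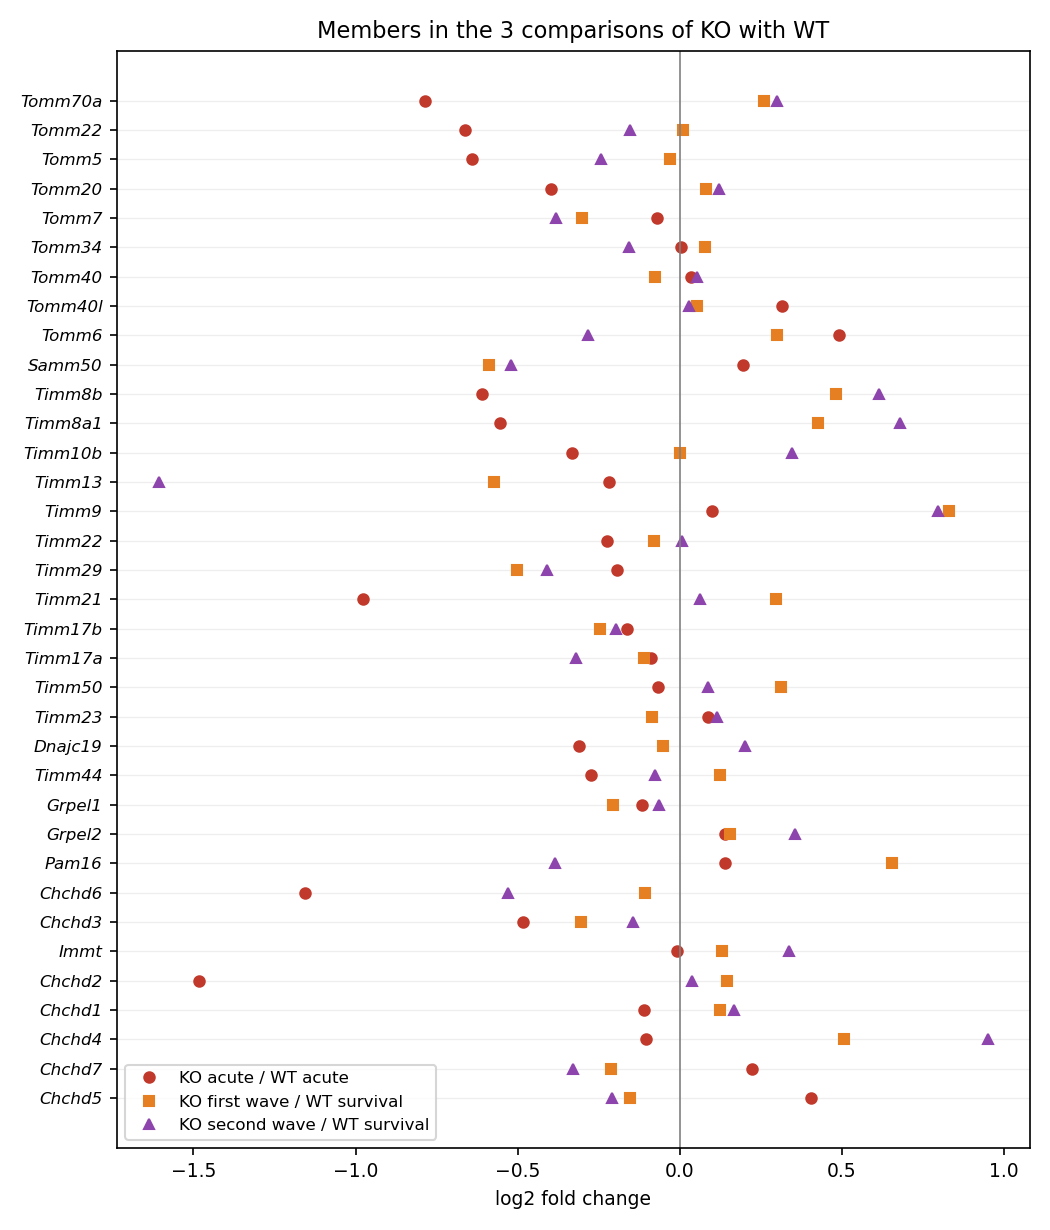
The log2 fold change (x axis) of each member tested in the acute libraries, for the acute comparison, the first wave and the second wave. Each is KO over its own WT libraries, in the order of the plot by role. Tomm70a was at -0.79, 0.26 and 0.30 in the acute comparison, the first and the second wave, and Chchd2 at -1.48, 0.15 and 0.04. Timm10, tested only in the survival libraries, is not drawn.

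Chchd4, Timm9 and Timm8a1 had the smallest p-values of the members in the second wave and over both waves. Chchd4 encodes MIA40, the oxidase that traps small TIM and CHCH proteins by disulfide bonds. It had 163, 189 and 169 normalized counts in KO first wave, 229, 206 and 279.9 in KO second wave, and 83.8, 109.9, 159 and 151 in WT survival. Each KO library lay above each WT library, but the gene did not pass in the first wave (0.51, adjusted p = 0.636) or the second (0.95, SE 0.28, adjusted p = 0.199). Without WT survival replicates 1 and 2, its lowest libraries, the second-wave value was 0.61 (adjusted p = 0.654).

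Timm9, a subunit of the small TIM hexamer, had 298, 306 and 359 normalized counts in KO first wave, 220.1, 337 and 411 in KO second wave, and 132, 138, 195 and 294 in WT survival. It was at 0.83 in the first wave (adjusted p = 0.617) and 0.79 in the second (adjusted p = 0.291), with overlap in the second wave only. Without WT survival replicates 1 and 2 these values were 0.42 (adjusted p = 1.00) and 0.38 (adjusted p = 0.804). Timm8a1, of the second small TIM hexamer, had 349, 319 and 340.5 normalized counts in KO first wave, 489, 358 and 367 in KO second wave, and 381, 222, 299 and 154 in WT survival, with 0.68 in the second wave (adjusted p = 0.335; 0.45 without WT survival replicate 4). Summed over the 7 measured small TIM genes, the RNA was 98.5 to 104.7 CPM in KO first wave, 110.0 to 127.5 in KO second wave and 71.5 to 88.6 in WT survival. These KO sums lay above those of WT, while no single gene of the group passed. Of the 6 tested small TIM genes, 5 were positive and Timm13 was negative in each wave. The sums of WT survival replicates 1 and 2 were the lowest, at 76.2 and 71.5 CPM, against 88.6 and 87.2 in replicates 3 and 4. The small TIM sum was the only one of the 8 role sums to lie apart from WT at the endpoint in both waves. How often sums over other groups of genes do so was not counted. The TOM, SAM, TIM22, TIM23, PAM motor, MICOS and other CHCHD sums overlapped with WT survival in each wave. The TOM sum, for instance, was 746 to 809 CPM in KO first wave, 762 to 816 in KO second wave and 646 to 819.5 in WT survival.

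Samm50 and Timm29 were lower in mean in the first wave without passing. Samm50 had 192, 146 and 157 normalized counts in KO first wave, 127, 197 and 203 in KO second wave, and 175, 377, 253 and 223 in WT survival (-0.59 in the first wave, adjusted p = 0.623). Timm29 had 318, 307 and 308 normalized counts in KO first wave, 384, 352 and 271 in KO second wave, and 649, 465, 302 and 415 in WT survival (-0.50 in the first wave, adjusted p = 0.623). In each a WT library reached into the KO range. Timm29 was at -0.19 without WT survival replicates 1 and 2, its highest libraries, and at -0.32 without replicate 1 alone, and Samm50 was at -0.39 without WT survival replicate 2.

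**Figure D4:**
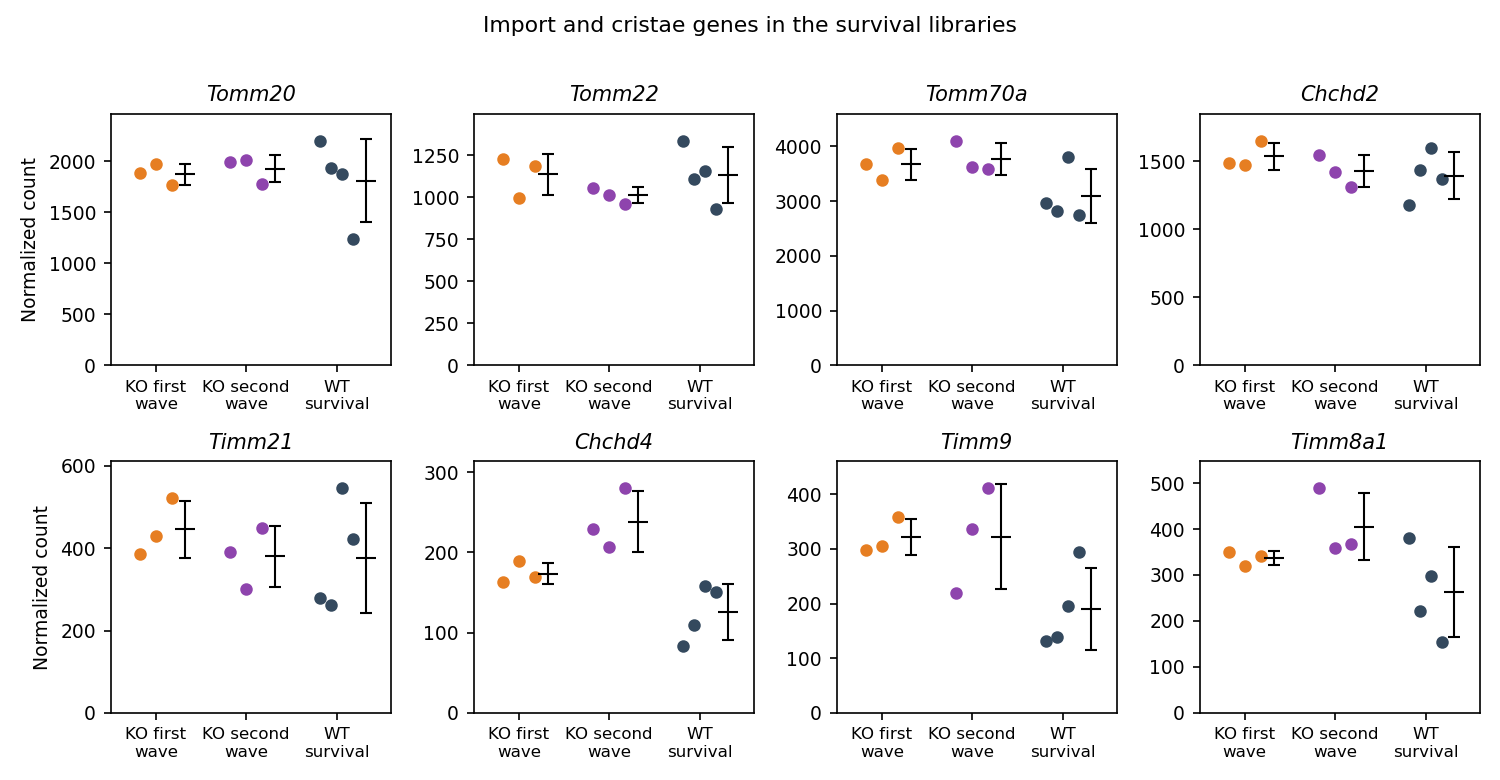
Normalized counts (y axis, from 0) of 8 members in each KO first wave (orange), KO second wave (purple) and WT survival (dark blue) library, with the mean and SD in black (n = 3, 3 and 4). The 5 genes that fell in the acute comparison overlap WT survival in both waves, and Chchd4, with 163 to 279.9 in KO, lies above the 83.8 to 159 of WT.

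Over both waves 0 of 36 members passed, against 0.0210% of all genes (3 genes). The count over all genes was 155 without WT survival replicate 3, 96 higher and 59 lower, and 5 without second wave replicate 3. An unadjusted p under 0.05 was found for 5 of 36 members, and for 1838 of all 14286 genes, a similar share. Timm9 was at 0.81 (SE 0.26, adjusted p = 0.289), Chchd4 at 0.73 (SE 0.24, adjusted p = 0.289) and Timm8a1 at 0.55 (SE 0.24, adjusted p = 0.369). Between the waves 0 of 36 members passed, against 0.119% of all genes (17 genes). That count was 38 without second wave replicate 3. It was 1 to 10 without any 1 of the first wave replicates, second wave replicate 1 or WT survival replicates 2 to 4. Of all genes 906 had an unadjusted p under 0.05 between the waves, and of the members 0. The smallest p was that of Pam16, a regulator of the PAM motor, with 53.8, 28.6 and 126 normalized counts in KO second wave, against 103, 95.7 and 177 in KO first wave (-1.04, adjusted p = 0.845). Its value was -0.54 without second wave replicate 2 and -1.59 without second wave replicate 3. Timm10b had 301, 299 and 376 normalized counts in KO second wave, 270.0, 307 and 199 in KO first wave, and 225, 274, 264 and 258 in WT survival. It was at 0.34 for the second wave over the first (0.17 without first wave replicate 3) and Chchd4 at 0.45 (adjusted p = 0.915 for both). Of the 40 other pathway genes tested, 0 passed in any of the survival contrasts. An unadjusted p under 0.05 was found for 5 of them in the first wave, 8 in the second, 2 between the waves and 6 over both. Over all 14286 genes these counts were 1146, 1857, 906 and 1838 in the same order. The sums over all measured members were 1741 to 1843 CPM in KO first wave, 1818 to 1893 in KO second wave and 1654 to 1849.8 in WT survival.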

How the data were processed

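RNA came from spleen cell suspensions after red cell lysis and went into stranded libraries, per the labels' protocols. The deposited signal values are gene counts that the authors estimated with kallisto 0.44.0 (build GRCm38) and normalized with DESeq, per the submitters' processing notes. The acute and survival libraries were normalized separately. No source used here gives the version of that normalization, the annotation, the gene filter or the strand setting. Between 37.9% and 63.6% of values under 8 were whole multiples of a library's smallest step within 0.02, and since reads could not be recovered as whole numbers, no count model was used.

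Values were taken as log2(value + 1), which understates changes of low genes, and limma 3.58.1 (R 4.3.3; lmFit, eBayes with trend) was run within each table on genes whose mean reached 10, with Benjamini-Hochberg adjustment over all genes tested and a threshold of 0.05. The acute fit held 8 libraries and the survival fit 10. The code was tested on simulated data. Coordinates, lengths and GC content came from GENCODE M21 of GRCm38, in which 19491 of 19509 symbols were found, and promoters from RefSeq. Errors are SDs or SEs between libraries; depth sets counting error only. Alternatives were another pseudocount, other filters, eBayes settings, quantile normalization, a replicate block, a removed trend, and libraries left out. The members and lists were chosen with earlier results of these data known. Full values are given for Acly, for members past the threshold, for the 3 members with the smallest p where fewer passed, for the most abundant member of each role in the acute libraries, and for the 7 other pathway genes past the threshold. Chchd3, Chchd6, Tomm5, Tomm40 and Pmpca were added after their values were seen.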

Additional observations from a re-analysis of the deposited data

Results flagged for a closer look

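In 6 of 106 groups of 4 libraries, 1 library lay apart from the other 3 by more than the 95% critical value of Dixon's ratio, and chance gives about 1 in 20. The ratios were 0.856 for Timm8a1 in KO acute replicate 2, low at 65.7 normalized counts beside 158.3 to 173.9, and 0.923 for Tomm34 in the same library, high at 349.2 beside 228.3 to 237.7. They were 0.833 for Tomm5 in KO acute replicate 3, high at 154.6 beside 122.0 to 127.4, and 0.874 for Timm22 in WT acute replicate 1, low at 85.7 beside 199.1 to 215.4. In WT survival replicate 3 they were 0.852 for Timm8b, high at 88.4 beside 39.5 to 46.7, and 0.835 for Tomm40l, high at 225.9 beside 167.8 to 177.4.

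Of the 35 members tested at both times, 6 had every KO library on one side of the WT mean in the acute comparison and on the other in at least 1 wave. This difference was not tested, since the acute and survival values were normalized separately. How many of all genes meet the same rule was not counted, so the 6 members cannot be set against a background. The endpoint log2 fold change minus the acute one was 1.630 for Chchd2, 1.272 for Timm21, 0.980 for Timm8a1 and 1.046 for Tomm70a in the first wave. In the second wave it was 0.678 for Timm10b, 1.232 for Timm8a1, -0.773 for Tomm6 and 1.085 for Tomm70a.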

How the results depend on the processing

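Of 17 alternatives in the acute comparison, the count of 5 members that fell became 2 with eBayes without trend (Chchd2 and Tomm70a), 3 with the length, GC and abundance trend taken out (Chchd2, Timm21 and Tomm70a) and 3 with KO acute replicates 1 and 2 left out. It was 7 with a minimum mean of 50, which adds Chchd3 and Tomm5, and 4 to 5 with 1 library left out. Chchd2, Tomm70a, Minos1, Pmpcb and Acly passed under all 17. Tomm20 was lost under 10, Tomm22 under 3 and Timm21 under 2, and of the other pathway genes Yme1l1 under 11, Hspe1 and Stoml2 under 10, and Dnajc11 and Hspd1 under 3. For Tomm22 and Timm21 the adjusted p without trend was 0.0522 and 0.0639. The count over all genes, 1794, was 693 without trend and 903 without KO acute replicates 1 and 2. The cause was not tested. The deviations of same-numbered libraries from their group means correlated at -0.029 to 0.007 (acute) and -0.029 to 0.095 (survival). The numbers were therefore taken to name libraries only. With the replicate block 4 members fell, without Tomm20 (adjusted p = 0.0723), and 0 passed at the endpoint. Under every survival alternative run 0 members passed. Acly in the first wave passed at -1.22 with a pseudocount of 5 (adjusted p = 0.0483), no filter (0.0440), a minimum mean of 50 (0.0424), robust eBayes (0.0398) and quantile normalization (0.0459), and ran from -1.29 to -1.15 with 1 library left out, passing without second wave replicate 3 (0.0255). No value changed sign. Groups of 3 and 4 libraries limit what can be detected, and an absent call does not show equal levels.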
